A study of Rattus norvegicus with 16 samples.

Results

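The replication and division machinery was examined through 40 cell cycle and proliferation genes. For this report 10 were assigned to S phase, when DNA is copied, and 30 to mitosis, when chromosomes are separated and the cell divides. The assignment is a simplification, since some of the 30, among them Mki67, Top2a and Ccna2, are not confined to mitosis. The genes were chosen by name, with earlier results of these data known. Each was read from the brightest probe set that the array annotation pairs with its symbol alone. That gave 37 of the 40 genes among the 17245 genes measured, 9 of S phase and 28 of mitosis. Tk1, Birc5 and Anln had no such probe set and were not analysed here.

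Male Wistar rats of 160 to 180 g gave RNA of the right ventricular wall, hybridised with 1 array per sample, in 3 groups named RVF+ (5 arrays, 8 to 12), RVF (4 arrays, 13 to 16) and CON (7 arrays, 1 to 7). RVF+ and RVF are the labels' own names, which they do not spell out. The series title speaks of failure of the right ventricle in chronic pressure load, and CON are the controls of the design text. The labels state a sham operation or banding of the pulmonary artery, a narrowing that loads the right ventricle with pressure, without saying which array had which. They give no age, no further treatment, no batch, and do not say whether arrays of a group came from separate animals. The p-values therefore set group differences only against the spread of these samples, shared over all 3 groups, and that spread may be technical.

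Cell cycle genes are expressed in waves. E2F transcription factors switch on genes for nucleotide supply and DNA replication before S phase, and the MuvB complexes with B-Myb and FoxM1 switch on the mitotic genes afterwards. In resting cells, E2F4 with MuvB and retinoblastoma-like proteins, together called DREAM, keep both waves low. In the adult heart most cardiomyocytes are out of the cycle, and dividing cells are largely fibroblasts, endothelial cells and immune cells.

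The promoter sequences of both waves are shown first, since they differ in the letters through which those regulators are known to bind. RefSeq windows of 300 bases on GRCr8, with 250 bases before and 50 after the annotated start of a gene, were at hand for 34 of the 40 genes. Where a symbol had several windows the first listed was taken, which left 27457 of 33469 windows. They were searched on both strands for the cell cycle genes homology region (CHR, with the letters TTTGAA and the variant form TTCGAA), for the CCAAT box (the letters CCAAT) and for E2F sites. The E2F letters were TTGGCGC as the first form, with TTCGCGC as the second form, then TTCCCGC as the third form and lastly TTGCCGC as the fourth form. The windows below, read 5′ to 3′ on the strand of the gene, belong to the 2 S phase and 3 mitotic genes with a window whose mean difference of RVF+ and RVF from CON was largest, and capitals mark every match. Mcm6 and Mcm3, helicase subunits, are at chr13:42404303-42404602 and chr9:30733697-30733996 on the minus strand. Cdkn3, a phosphatase of cyclin-dependent kinases, is at chr15:22502136-22502435 on the plus strand. Mki67, the gene of the proliferation antigen Ki-67, is at chr1:199952544-199952843 on the minus strand, and Prc1, a microtubule crosslinker, at chr1:143659231-143659530 on the plus strand.
Mcm6: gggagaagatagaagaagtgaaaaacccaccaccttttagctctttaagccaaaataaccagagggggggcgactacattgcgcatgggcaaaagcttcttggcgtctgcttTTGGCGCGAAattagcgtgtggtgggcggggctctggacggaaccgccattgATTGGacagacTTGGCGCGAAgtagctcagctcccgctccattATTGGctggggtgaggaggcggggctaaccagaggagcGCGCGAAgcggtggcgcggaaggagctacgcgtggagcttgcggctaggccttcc
Mcm3: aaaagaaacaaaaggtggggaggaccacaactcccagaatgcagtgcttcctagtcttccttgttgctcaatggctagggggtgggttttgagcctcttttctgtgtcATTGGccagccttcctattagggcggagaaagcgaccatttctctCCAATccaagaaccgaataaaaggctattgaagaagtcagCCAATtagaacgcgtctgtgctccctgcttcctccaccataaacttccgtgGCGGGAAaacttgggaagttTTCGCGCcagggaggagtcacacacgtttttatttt
Cdkn3: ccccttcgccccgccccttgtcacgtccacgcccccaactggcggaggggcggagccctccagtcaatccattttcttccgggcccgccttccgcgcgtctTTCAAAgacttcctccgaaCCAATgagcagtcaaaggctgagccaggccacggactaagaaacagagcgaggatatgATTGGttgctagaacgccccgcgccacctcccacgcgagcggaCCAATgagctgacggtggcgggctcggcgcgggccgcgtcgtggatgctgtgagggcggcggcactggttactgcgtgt
Mki67: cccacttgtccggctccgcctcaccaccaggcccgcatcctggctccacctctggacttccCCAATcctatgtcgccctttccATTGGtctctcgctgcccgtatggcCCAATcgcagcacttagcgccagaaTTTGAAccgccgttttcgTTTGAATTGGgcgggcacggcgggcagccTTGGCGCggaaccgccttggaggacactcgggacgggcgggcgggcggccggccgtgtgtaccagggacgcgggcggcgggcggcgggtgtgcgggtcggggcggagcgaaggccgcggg
Prc1: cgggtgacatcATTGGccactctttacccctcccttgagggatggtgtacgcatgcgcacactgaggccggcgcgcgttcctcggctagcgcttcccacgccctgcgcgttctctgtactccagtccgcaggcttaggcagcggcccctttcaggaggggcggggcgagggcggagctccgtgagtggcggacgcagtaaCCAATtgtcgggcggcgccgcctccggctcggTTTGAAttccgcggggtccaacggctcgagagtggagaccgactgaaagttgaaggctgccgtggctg

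In Mcm6 the E2F matches on the opposite strands overlap, so that bases 113 to 122 and 176 to 185 each hold a pair of them. Mcm3 held E2F matches at bases 245 to 251, across the annotated start, and 265 to 271, after it, and no CHR. The 3 mitotic windows each held a CHR and a CCAAT box, and in Mki67 the CHR at bases 152 to 157 overlaps a CCAAT match in its last base. Mki67 also held an E2F match at bases 181 to 187, and Mcm6 and Mcm3 also held CCAAT boxes. Among all members with a window, a CHR lay in 18 of 26 mitotic windows (69.2%) and 2 of 8 S phase windows (25.0%). It lay in 19.5% of the 27457 windows taken, the first listed for each symbol. An E2F match lay in 5 of 26 mitotic windows (19.2%) and 6 of 8 S phase windows (75.0%), against 10.0% of all windows. CCAAT boxes were in 69.2% of mitotic and 62.5% of S phase windows, against 37.7% of all, and CHR together with CCAAT in 53.8% and 12.5%, against 7.83%. A match describes letters in a window and shows no binding.

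**Figure D1:**
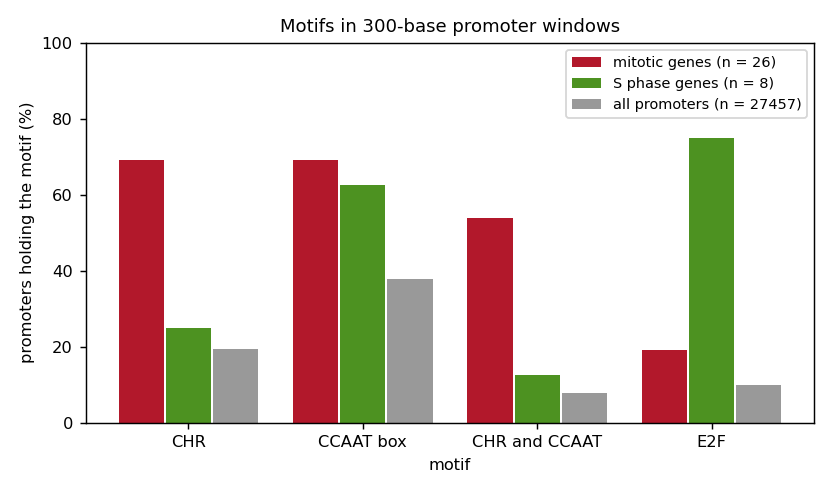
Share of 300-base promoter windows (vertical axis, %) that hold a CHR, a CCAAT box, both, or an E2F match. Bars are for mitotic genes (n = 26), S phase genes (n = 8) and all 27457 symbols, with the first listed window of each. CHR matches are in 69.2% of mitotic windows and E2F matches in 75.0% of S phase windows.

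Over all genes, RVF+ 8 stood apart from the other arrays. It lay 0.711 from the mean CON profile (root mean square of log2 over all genes). The remaining RVF+ and RVF arrays lay 0.326 to 0.448 from it, and the CON arrays 0.157 to 0.212. Counts and medians below are given with and without it, as is the RVF+ difference of each gene whose arrays are listed. That split was set in advance together with the genes, which were chosen with earlier results of these data known. Cardiomyocyte markers (11 of 12 listed genes measured) averaged 10.81 to 11.91 on the log2 scale in all 16 arrays, where the median gene lay at 5.57, so the defining markers of the labelled tissue were present. The values are log2 intensities throughout, and differences are differences of log2, so that 1 is a 2-fold change.

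Mitotic genes were higher in both RVF+ and RVF than in CON, and S phase genes moved less. The 28 mitotic genes averaged 5.03 ± 1.02 in RVF+ (SD, n = 5), 4.69 ± 0.0707 in RVF (n = 4) and 3.90 ± 0.0936 in CON (n = 7). By array the mitotic mean was 6.77, 4.54, 4.72, 4.15 and 5.01 in RVF+ 8 to 12 and 4.79, 4.64, 4.67 and 4.65 in RVF 13 to 16, against 3.76 to 4.01 in CON. Every RVF+ and RVF array lay above every CON array, RVF+ 8 far above the rest and RVF+ 11 nearest to CON. The contrast between the phases is a description and was not tested. Only 1 of the 28 mitotic genes lay at or above the median level of all genes (5.57), against 4 of the 9 S phase genes. Phase and signal level therefore cannot be told apart in this contrast. The 9 S phase genes averaged 6.17 ± 0.815 in RVF+, 5.99 ± 0.148 in RVF and 5.57 ± 0.0640 in CON. Their mean by array was 7.57, 5.67, 5.78, 5.62 and 6.20 in RVF+ 8 to 12 and 6.19, 5.85, 6.01 and 5.90 in RVF 13 to 16, against 5.48 to 5.67 in CON. RVF+ 9 and RVF+ 11 lay within or at the edge of the CON range in S phase genes, and the RVF arrays all lay above it. Measured from the CON mean, the mitotic shift was larger than the S phase shift in each of these 9 arrays, at 2.87 against 2.00 in RVF+ 8, 0.25 against 0.05 in RVF+ 11 and 0.89 against 0.62 in RVF 13. In a bulk sample such as this, a change in the number of cells of a type and a change in RNA per cell cannot be told apart.

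**Figure D2:**
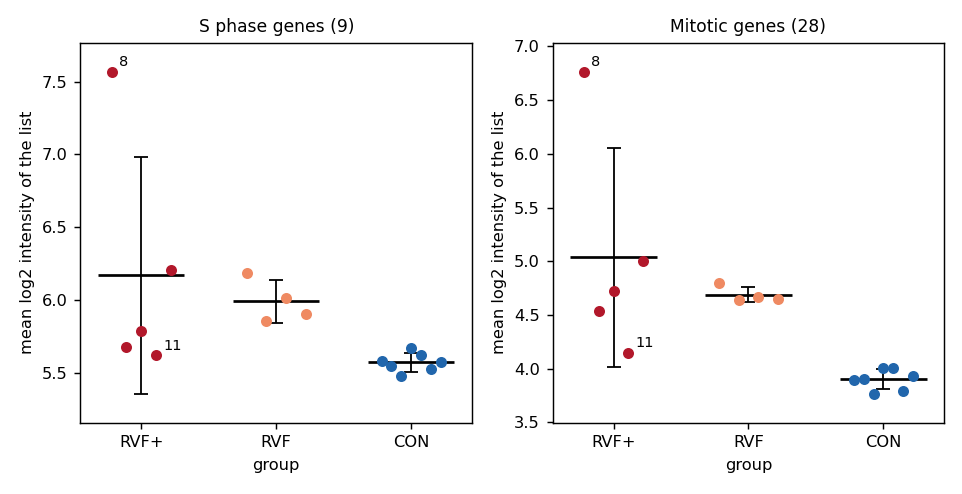
Mean log2 intensity of the 9 S phase genes (left) and the 28 mitotic genes (right) for each array by group, with horizontal lines at the group mean and bars of ± 1 SD. RVF+ 8 is highest in both panels, and the 4 RVF arrays lie between 4.64 and 4.79 in mitotic genes, above the CON arrays.

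Within RVF+ the values were far apart, with RVF+ 8 at the top. It was the highest of the 16 arrays in 37 of 37 members, where it was highest in 19.5% of all genes. It exceeded the mean of the other RVF+ arrays by a median of 2.18 over the members (1.74 in S phase and 2.23 in mitotic genes), against -0.04 over all genes. RVF+ 11 was the lowest RVF+ array in 29 of 37 members (25 of 28 mitotic and 4 of 9 S phase genes), where it was lowest in 19.6% of all genes. The median SD of a member was 1.04 in RVF+, 0.349 in RVF+ without that array, 0.126 in RVF and 0.183 in CON. The 4 RVF arrays were thus much closer to one another than the RVF+ arrays were. The genes and RVF+ 8 were singled out together beforehand, so the ranks of that array are a description and not a test.

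**Figure D3:**
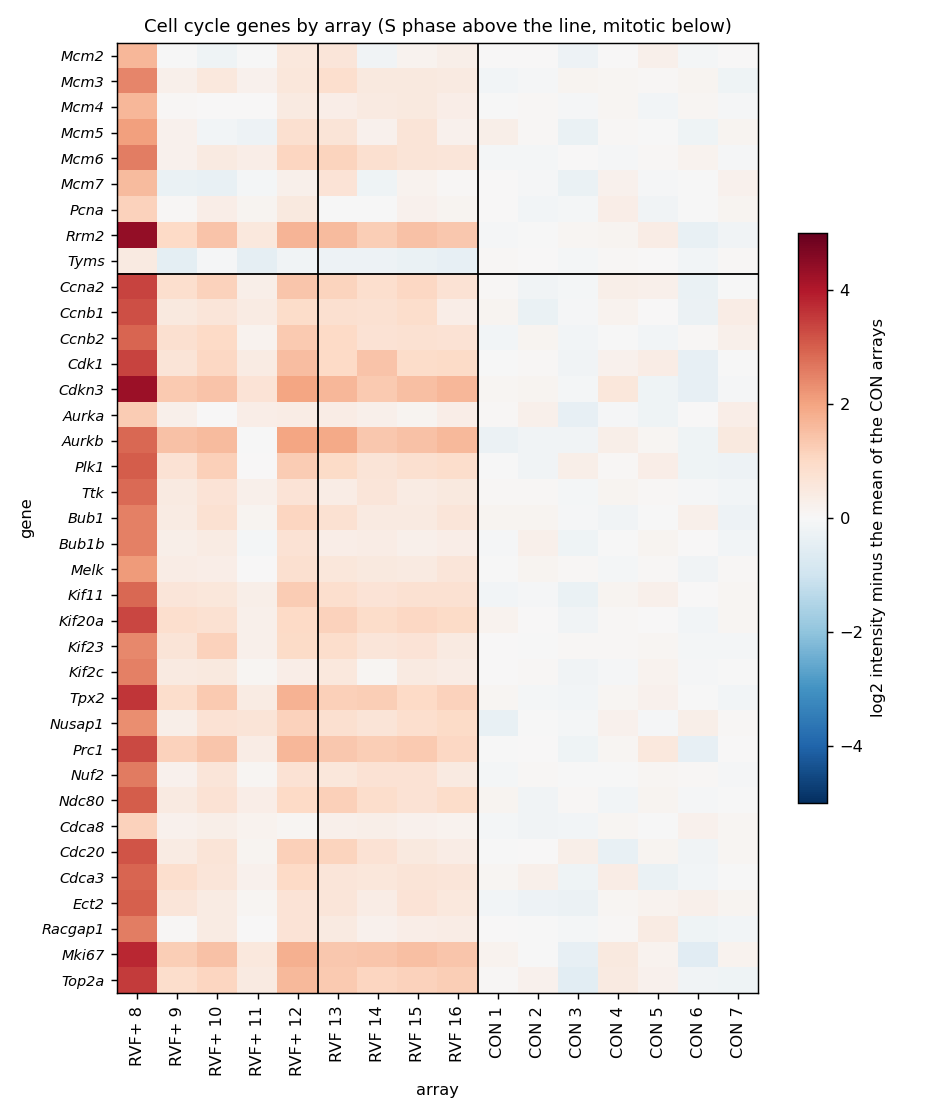
Log2 intensity minus the mean of the CON arrays (colour) for the 37 measured genes (rows, S phase above the line and mitotic below) in every array (columns, RVF+ then RVF then CON). RVF+ 8 is the reddest column in all rows, and Tyms is the row in which most RVF+ and RVF arrays lie below CON.

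In RVF+ against CON, 28 of 37 members rose and 0 fell at a limma adjusted p under 0.05, while 14.1% of all genes were called higher and 13.6% lower. Those were 24 of 28 mitotic genes and 4 of 9 S phase genes (Mcm3, Mcm6, Pcna and Rrm2). The median difference was 1.11 over the mitotic genes and 0.44 over the S phase genes, against -0.01 over all genes. All 5 RVF+ arrays lay above all 7 CON arrays in 16 members, 13 mitotic and 3 S phase, and in 6.96% of all genes. In 0 members did they all lie below CON (7.63% of all genes). Without RVF+ 8, 27 members rose and 1, Tyms, fell, against 12.9% and 12% of all genes called higher and lower. The mitotic count stayed at 24, with Kif2c gained and Cdca8 lost, while Pcna was lost among S phase genes. The median differences were then 0.67 for mitotic and 0.16 for S phase genes. The 4 remaining RVF+ arrays lay above all CON arrays in 16 members (7.96% of all genes) and below them in 0 (8.16%).

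In RVF against CON, 8 members rose and 0 fell with all 16 arrays, where 8.86% of all genes were called higher and 8.29% lower. They were Rrm2 of S phase and Cdkn3, Aurkb, Tpx2, Nusap1, Prc1, Mki67 and Top2a of mitosis. All 4 RVF arrays nevertheless lay above all 7 CON arrays in 26 members, 22 mitotic and 4 S phase, and in 9.83% of all genes. They lay below all CON arrays in 1 member, Tyms, and in 9% of all genes. RVF+ 8 is in neither group, but the fit draws 1 spread per gene from all 16 arrays. With that array left out, 29 members rose (25 mitotic and 4 S phase) and Tyms fell, against 13.4% and 11.2% of all genes. The differences of RVF from CON do not depend on it, with medians of 0.73 over mitotic and 0.40 over S phase genes. Both comparisons use the same 7 CON arrays, so their calls are not independent of each other.

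**Figure D4:**
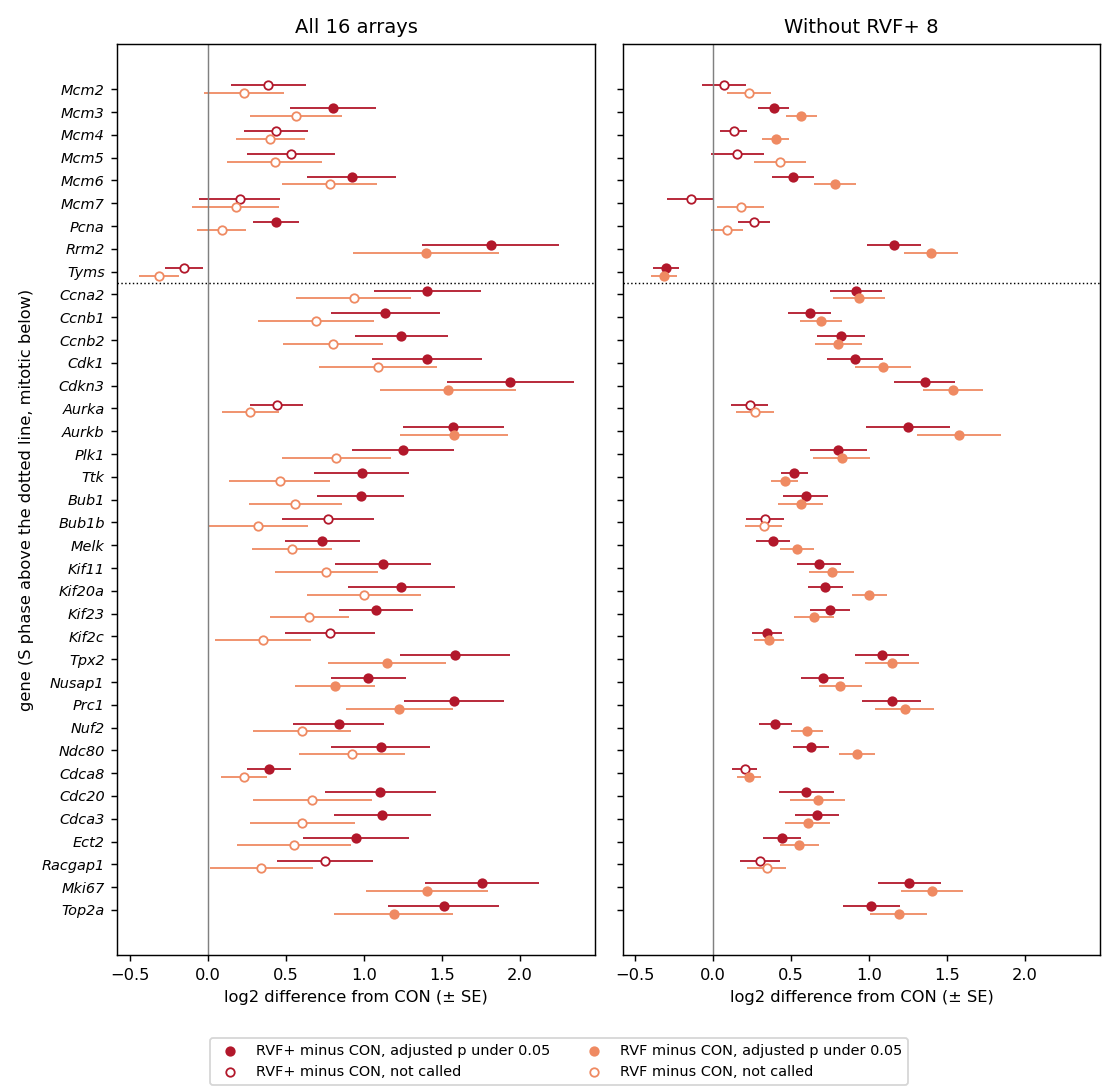
Log2 difference from CON (± SE) of each measured gene in RVF+ (dark red) and RVF (orange) with all 16 arrays (left) and without RVF+ 8 (right). Filled points passed an adjusted p of 0.05, and the number of filled RVF points goes up to 30 without RVF+ 8, against 8 with it.

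Among S phase genes, the subunits of the replicative helicase, a ring of Mcm2 to Mcm7 that unwinds DNA ahead of the polymerases, were split. Mcm6 read 7.16, 4.81, 5.06, 4.95 and 5.68 in RVF+ 8 to 12 and 5.71, 5.39, 5.25 and 5.21 in RVF 13 to 16, against 4.52 to 4.80 in CON with a median of 4.56. Every RVF+ and RVF array lay above every CON array, RVF+ 9 only just. The difference from CON was 0.92 ± 0.28 in RVF+ (SE, 1.89-fold, limma adjusted p = 0.0218) and 0.78 ± 0.30 in RVF (1.72-fold, adjusted p = 0.089). Without RVF+ 8 the differences were 0.51 ± 0.13 in RVF+ (adjusted p = 0.00855) and 0.78 ± 0.13 in RVF (adjusted p = 0.00032). Mcm3 read 6.58, 4.38, 4.64, 4.34 and 4.71 in RVF+ and 4.97, 4.62, 4.62 and 4.56 in RVF, against 3.92 to 4.27 in CON with a median of 4.18. Here too the groups did not overlap, and the difference was 0.80 ± 0.28 in RVF+ (adjusted p = 0.0375) and 0.57 ± 0.29 in RVF (adjusted p = 0.213). That RVF+ call was lost on leaving out any of CON 1, 2, 4, 5 or 7, where the adjusted p was 0.0506 to 0.0646. Without RVF+ 8 the difference was 0.39 ± 0.10 in RVF+ (adjusted p = 0.00774). Mcm2, Mcm4, Mcm5 and Mcm7 did not pass in either comparison, with differences of 0.21 to 0.53 in RVF+ and 0.18 to 0.43 in RVF. Of these, Mcm4 stood out in RVF, with 6.96, 7.08, 7.11 and 6.94 against 6.50 to 6.72 in CON and a difference of 0.40 ± 0.08 without RVF+ 8 (adjusted p = 0.00189). Mcm7 differed in RVF+ by 0.21 ± 0.26 with all arrays and by -0.14 ± 0.15 without RVF+ 8.

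Pcna, the sliding clamp that holds polymerases on DNA, read 8.66, 7.57, 7.84, 7.64 and 8.01 in RVF+ and 7.50, 7.49, 7.73 and 7.66 in RVF, against 7.32 to 7.82 in CON with a median of 7.50. A total of 3 RVF+ arrays lay above all CON arrays and the RVF arrays lay among them. Its difference was 0.44 ± 0.15 in RVF+ (1.36-fold, adjusted p = 0.0337) and 0.09 ± 0.16 in RVF (adjusted p = 0.759). The RVF+ call was lost without RVF+ 8 (0.26 ± 0.10, adjusted p = 0.0754). It was also lost without CON 2, CON 3, CON 5, CON 6 or RVF+ 12, at adjusted p of 0.0513 to 0.063.

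The enzymes of deoxynucleotide supply moved in opposite directions. Rrm2, the subunit that carries the radical of ribonucleotide reductase, read 8.25, 4.85, 5.25, 4.36 and 5.54 in RVF+ and 5.40, 5.08, 5.29 and 5.16 in RVF, against 3.45 to 4.21 in CON with a median of 3.82. All RVF+ and RVF arrays exceeded all CON arrays. It rose by 1.81 ± 0.44 in RVF+ (3.51-fold, adjusted p = 0.0048) and by 1.40 ± 0.47 in RVF (2.63-fold, adjusted p = 0.0486), and without RVF+ 8 by 1.16 ± 0.17 (adjusted p = 9.15e-05) and 1.40 ± 0.17 (adjusted p = 1.4e-05). Its dimmer probe set differed by 1.65 ± 0.43 in RVF+ and 1.28 ± 0.46 in RVF. Tyms, thymidylate synthase, read 7.79, 6.86, 7.28, 6.91 and 7.17 in RVF+ and 7.11, 7.09, 7.02 and 6.95 in RVF, against 7.21 to 7.43 in CON with a median of 7.39. The 4 RVF arrays and 3 RVF+ arrays lay below all CON arrays, and RVF+ 8 lay above them. With all arrays its difference was -0.15 ± 0.12 in RVF+ (adjusted p = 0.392) and -0.31 ± 0.13 in RVF (adjusted p = 0.112). Without RVF+ 8 it fell by 0.30 ± 0.08 in RVF+ (adjusted p = 0.0128) and by 0.31 ± 0.08 in RVF (adjusted p = 0.0102). Rrm2 was the only S phase member that passed in RVF against CON with all arrays.

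The mitotic cyclins, their kinase Cdk1 and its phosphatase Cdkn3 rose in RVF+ in 5 of 5 cases, by 1.14 to 1.94 with all arrays and by 0.62 to 1.36 without RVF+ 8. Cdkn3 had the largest difference of any member in RVF+ with all arrays, and read 7.48, 4.54, 4.65, 3.90 and 5.19 in RVF+ and 4.89, 4.54, 4.71 and 4.88 in RVF, against 2.81 to 3.79 in CON with a median of 3.16. All RVF+ and RVF arrays lay above all CON arrays. It rose by 1.94 ± 0.41 in RVF+ (3.83-fold, adjusted p = 0.00172) and 1.54 ± 0.43 in RVF (2.90-fold, adjusted p = 0.0207), and by 1.36 ± 0.19 in RVF+ without RVF+ 8. Ccnb2, a B-type cyclin, read 7.15, 5.03, 5.23, 4.40 and 5.53 in RVF+ and 5.21, 4.94, 5.00 and 4.96 in RVF, against 4.08 to 4.47 in CON with a median of 4.21. RVF+ 11 lay among the CON arrays and all others lay above them. The difference was 1.24 ± 0.30 in RVF+ (adjusted p = 0.00465) and 0.80 ± 0.32 in RVF (adjusted p = 0.0963), and 0.82 ± 0.15 in RVF+ without RVF+ 8 (adjusted p = 0.000581). Ccnb1, the cyclin that activates Cdk1 at mitotic entry, read 6.83, 4.13, 4.24, 4.05 and 4.55 in RVF+ and 4.44, 4.37, 4.48 and 3.97 in RVF, against 3.31 to 4.01 in CON with a median of 3.63. RVF 16 was within the CON range, and the other RVF+ and RVF arrays were above it. Ccnb1 differed by 1.14 ± 0.35 in RVF+ (adjusted p = 0.0209) and 0.69 ± 0.37 in RVF (adjusted p = 0.23), and by 0.62 ± 0.14 in RVF+ without RVF+ 8 (adjusted p = 0.00256). Of the 5 genes only Cdkn3 passed in RVF with all arrays, and all 5 passed without RVF+ 8. Ccna2 and Cdk1 differed by 1.41 ± 0.34 and 1.40 ± 0.35 in RVF+ and by 0.93 ± 0.37 and 1.09 ± 0.38 in RVF.

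Of the mitotic kinases, 5 of 7 rose in RVF+ and 1, Aurkb, in RVF, and 5 passed in each without RVF+ 8. Aurkb, the kinase of the chromosomal passenger complex, read 7.21, 5.79, 5.93, 4.31 and 6.32 in RVF+ and 6.25, 5.69, 5.79 and 5.95 in RVF, against 4.06 to 4.82 in CON with a median of 4.15. RVF+ 11 was the exception, inside the CON range. The differences were of the same size, 1.57 ± 0.32 in RVF+ (2.97-fold, adjusted p = 0.00142) and 1.58 ± 0.34 in RVF (2.98-fold, adjusted p = 0.00395), and the first was 1.25 ± 0.27 without RVF+ 8 (adjusted p = 0.00209). Plk1, which acts from centrosome maturation to cytokinesis, read 7.09, 4.81, 5.26, 4.10 and 5.32 in RVF+ and 5.03, 4.70, 4.88 and 4.96 in RVF, against 3.81 to 4.39 in CON with a median of 4.05. Again RVF+ 11 was the array inside the CON range. Plk1 differed by 1.25 ± 0.33 in RVF+ (adjusted p = 0.00813) and 0.82 ± 0.35 in RVF (adjusted p = 0.12), and by 0.80 ± 0.18 in RVF+ without RVF+ 8 (adjusted p = 0.00332). The spindle checkpoint kinases Ttk and Bub1 and the kinase Melk rose in RVF+ by 0.73 to 0.99. Aurka, the spindle pole kinase, differed by 0.44 ± 0.17 (adjusted p = 0.0648) and Bub1b by 0.77 ± 0.29 (adjusted p = 0.0614). Melk lost its RVF+ call without CON 6 or RVF+ 12, at adjusted p of 0.0526 and 0.0544.

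Spindle motors and microtubule binders rose in 6 of 7 cases in RVF+ and in 3 of 7 in RVF, and all 7 passed in both without RVF+ 8. Prc1, which bundles microtubules of the central spindle, read 7.54, 5.38, 5.65, 4.62 and 5.90 in RVF+ and 5.57, 5.47, 5.54 and 5.30 in RVF, against 3.84 to 4.76 in CON with a median of 4.26. All arrays but RVF+ 11 lay above CON. It rose by 1.58 ± 0.32 in RVF+ (2.98-fold, adjusted p = 0.0014) and 1.23 ± 0.34 in RVF (2.34-fold, adjusted p = 0.0199), and by 1.15 ± 0.19 in RVF+ without RVF+ 8 (adjusted p = 0.000221). Kif23, a motor of the centralspindlin complex, read 6.14, 4.41, 4.91, 4.00 and 4.71 in RVF+ and 4.63, 4.34, 4.43 and 4.21 in RVF, against 3.67 to 3.84 in CON with a median of 3.75. The RVF+ and RVF arrays all lay above the narrow range of CON. Kif23 differed by 1.08 ± 0.24 in RVF+ (adjusted p = 0.00241) and 0.65 ± 0.25 in RVF (adjusted p = 0.0887), and by 0.75 ± 0.13 in RVF+ without RVF+ 8 (adjusted p = 0.000281). Tpx2, an activator of Aurka at the spindle, and Nusap1, a microtubule stabiliser, rose in RVF+ by 1.58 ± 0.35 and 1.03 ± 0.24. In RVF they rose by 1.15 ± 0.38 and 0.82 ± 0.26. The motors Kif11 and Kif20a rose in RVF+ by 1.12 ± 0.31 and 1.24 ± 0.34, and Kif2c, which takes microtubules apart, differed by 0.78 ± 0.29 (adjusted p = 0.0505).

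Genes of the kinetochore, the passenger complex and the anaphase-promoting complex rose in 5 of 5 cases in RVF+ and 0 of 5 in RVF with all arrays. Ndc80, which ties kinetochores to microtubules, read 6.42, 3.86, 4.15, 3.74 and 4.40 in RVF+ and 4.59, 4.27, 4.15 and 4.32 in RVF, against 3.25 to 3.56 in CON with a median of 3.39. No RVF+ or RVF array reached down to CON. Its difference was 1.11 ± 0.32 in RVF+ (adjusted p = 0.0143) and 0.92 ± 0.34 in RVF (adjusted p = 0.0715), and without RVF+ 8 it was 0.63 ± 0.12 (adjusted p = 0.000563) and 0.92 ± 0.12 (adjusted p = 1.48e-05). Cdca3, which promotes mitotic entry, read 5.99, 3.92, 3.67, 3.28 and 4.08 in RVF+ and 3.66, 3.64, 3.72 and 3.68 in RVF, against 2.74 to 3.45 in CON with a median of 3.06. RVF+ 11 fell among the CON arrays. The differences were 1.12 ± 0.31 in RVF+ (adjusted p = 0.0121) and 0.61 ± 0.33 in RVF (adjusted p = 0.241), with 0.67 ± 0.14 in RVF+ without RVF+ 8 (adjusted p = 0.00191). Nuf2, the partner of Ndc80, Cdc20, the activator of the anaphase-promoting complex, and Cdca8 (borealin) rose in RVF+ by 0.84 ± 0.29, 1.11 ± 0.36 and 0.39 ± 0.14. The Cdca8 call was lost without RVF+ 8 (0.20 ± 0.08, adjusted p = 0.0679). Without RVF+ 8 all 5 genes passed in RVF and 4 of 5 in RVF+. Of the 16 fits that left out 1 array, 12 lost the RVF+ call of Cdca8, 9 that of Nuf2, and 2 (CON 4 and RVF+ 12) that of Cdc20.

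The 2 measured genes of cytokinesis had the lowest median difference of the mitotic roles, 0.85 in RVF+ and 0.45 in RVF. Ect2, which activates the GTPase RhoA at the cleavage furrow, read 6.89, 4.50, 4.30, 3.98 and 4.57 in RVF+ and 4.51, 4.27, 4.59 and 4.43 in RVF, against 3.62 to 4.17 in CON with a median of 4.00. RVF+ 11 was inside the CON range, all other RVF+ and RVF arrays above it. It differed by 0.95 ± 0.34 in RVF+ (adjusted p = 0.045) and 0.55 ± 0.36 in RVF (adjusted p = 0.338), and the RVF+ call was lost in 12 of the 16 fits that left out 1 array, though not without RVF+ 8 (0.44 ± 0.12, adjusted p = 0.0135). Racgap1, the partner of Kif23 in centralspindlin, read 6.63, 4.13, 4.50, 4.11 and 4.78 in RVF+ and 4.52, 4.31, 4.42 and 4.45 in RVF, against 3.85 to 4.49 in CON with a median of 4.05. Most of its RVF+ and RVF arrays overlapped CON. It did not pass in RVF+ (0.75 ± 0.31, adjusted p = 0.0777) or RVF (0.34 ± 0.33, adjusted p = 0.53), nor without RVF+ 8 (0.30 ± 0.13 in RVF+, adjusted p = 0.0966).

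The chromosome proteins Mki67 and Top2a rose in both groups. Mki67, which coats mitotic chromosomes and is the usual stain for cycling cells, read 8.96, 6.43, 6.68, 5.73 and 6.97 in RVF+ and 6.55, 6.59, 6.68 and 6.57 in RVF, against 4.64 to 5.69 in CON with a median of 5.35. All lay above CON, RVF+ 11 only just, and the 4 RVF arrays were close to one another. It rose by 1.76 ± 0.37 in RVF+ (3.38-fold, adjusted p = 0.00161) and 1.40 ± 0.39 in RVF (2.64-fold, adjusted p = 0.0192), and without RVF+ 8 by 1.26 ± 0.20 (adjusted p = 0.000167) and 1.40 ± 0.20 (adjusted p = 5.58e-05). Top2a, the topoisomerase that untangles sister chromatids, read 8.07, 5.44, 5.65, 5.02 and 6.18 in RVF+ and 5.87, 5.64, 5.69 and 5.80 in RVF, against 4.04 to 4.99 in CON with a median of 4.60. All RVF+ and RVF arrays lay above all CON arrays, RVF+ 11 only just. It rose by 1.51 ± 0.36 in RVF+ (2.85-fold, adjusted p = 0.00398) and 1.19 ± 0.38 in RVF (2.28-fold, adjusted p = 0.0387), and by 1.01 ± 0.18 in RVF+ without RVF+ 8 (adjusted p = 0.000489).

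Several RVF calls made with all arrays lay close to the threshold. Rrm2 lost its RVF call in 13 of 16 fits that left out 1 array, Tpx2 in 12, Top2a in 9 and Nusap1 in 8. Over these fits the differences stayed at 1.33 to 1.46 for Rrm2, 1.12 to 1.20 for Tpx2, 1.10 to 1.26 for Top2a and 0.75 to 0.87 for Nusap1. Cdkn3 and Prc1 lost it in 2 each and Mki67 in 1, while Aurkb kept it in all 16. Without RVF+ 8 all 8 of these members passed.

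RVF+ against RVF gave no call over all genes with all arrays. Among the members 0 of 37 passed, and among all 17245 genes 0 passed with limma (0% called, higher or lower), although 1242 genes, and 0 members, had an unadjusted p under 0.05. With all arrays, 36 of 37 members were higher in RVF+, by a median of 0.35 (0.15 in S phase and 0.40 in mitotic genes). Without RVF+ 8, only 8 of 37 were higher, and the median was -0.08 (-0.24 in S phase and -0.07 in mitotic genes). The direction of RVF+ against RVF in these genes thus turned on 1 array. With RVF+ 8 and RVF+ 12 both left out, 60 genes were called higher and 60 lower, among them 1 member, Mcm4 (-0.37 ± 0.08, adjusted p = 0.0407). In 0 members did all RVF+ arrays lie above (0.586% of all genes) or below (1.15%) all RVF arrays, nor without RVF+ 8 (1.36% above and 1.92% below). Mki67 differed by 0.36 ± 0.42 with it and -0.15 ± 0.23 without it, and Pcna by 0.35 ± 0.17 (adjusted p = 0.692) and 0.17 ± 0.12. These standard errors allow differences of either sign for Mki67, and a p above the threshold does not show that RVF+ and RVF are alike.

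Other genes of the same pathways, not among the members, are set beside the shares of all genes called higher and lower, 14.1% and 13.6% in RVF+ and 8.86% and 8.29% in RVF. Without RVF+ 8 those shares were 12.9% and 12% in RVF+ and 13.4% and 11.2% in RVF. Of 62 further mitotic genes, 54 were measured, and in RVF+ 36 rose and 0 fell, with a median of 0.78. In RVF 4 of the 54 rose (Cenpn, Foxm1, Ckap2 and Knl1, named after their values were seen), with a median of 0.46. Without RVF+ 8 the counts were 34 up and 1 down (Ncapg2) in RVF+ and 35 up in RVF, with medians of 0.45 and 0.46. Ckap2, a microtubule stabiliser, rose by 1.36 ± 0.25 in RVF+ (adjusted p = 0.000633) and 1.02 ± 0.27 in RVF (adjusted p = 0.0143). Nek2, a centrosome kinase, and Ube2c, the ubiquitin-conjugating enzyme of the anaphase-promoting complex, rose in RVF+ by 1.32 ± 0.27 and 0.84 ± 0.17. Neither passed in RVF with all arrays. Without RVF+ 8 both passed in both groups, by 0.93 ± 0.13 and 0.60 ± 0.08 in RVF+ and by 0.83 ± 0.13 and 0.48 ± 0.08 in RVF. Of 32 further S phase genes, 28 were measured, and in RVF+ 6 rose and 1 fell, with a median of 0.37. In RVF 0 rose and 1 fell, with a median of 0.20. With all arrays the RVF shares of both lists were thus no larger than that of all genes. Without RVF+ 8, 3 S phase genes rose and 2 (Mcm10 and Dut) fell in RVF+, with a median of 0.12, and 6 rose and 1 fell in RVF, with a median of 0.20. Fen1, the flap endonuclease of Okazaki fragments, and Rfc2, a clamp loader subunit, rose in RVF+ by 0.50 ± 0.13 and 0.46 ± 0.15. Without RVF+ 8, Fen1 differed by 0.36 ± 0.11 (adjusted p = 0.0181) and Rfc2, whose call was lost, by 0.28 ± 0.10 (adjusted p = 0.0564). Dut, which keeps dUTP out of DNA and makes the substrate of Tyms, was the gene that fell, by 0.40 ± 0.08 in RVF+ (adjusted p = 0.000682) and 0.37 ± 0.08 in RVF (adjusted p = 0.00402). Of 35 regulators of the step into the cycle, 31 were measured, with 11 up and 3 down in RVF+ and 6 up and 3 down in RVF, and without RVF+ 8 with 10 up and 3 down in RVF+ and 10 up and 6 down in RVF. The inhibitor Cdkn2c rose by 0.97 ± 0.15 in RVF+ and 0.70 ± 0.16 in RVF, and the growth factor target Myc by 0.91 ± 0.18 and 0.88 ± 0.19. Lin54, the MuvB subunit that contacts the CHR, rose by 0.46 ± 0.09 in RVF+ and 0.43 ± 0.09 in RVF. The 3 that fell in RVF+, named after their values were seen, were Lin52, also a MuvB subunit, E2f6 and Tfdp2. Lin52 differed by -0.43 ± 0.11 in RVF+ with all arrays. Without RVF+ 8 it differed by -0.37 ± 0.11 in RVF+ and -0.34 ± 0.11 in RVF. The 3 that fell in RVF with all arrays were E2f6, Tfdp2 and Rbl2.

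Markers of other cell types are read against the same shares of all genes. Of 18 macrophage markers 17 were measured, and 15 rose in RVF+ and 8 in RVF with all arrays, 15 and 12 without RVF+ 8. Their summed intensity was 3393 to 9159 in RVF+, 2804 to 3916 in RVF and 1833 to 2569 in CON, and the mean log2 level was 8.85 in RVF+ 8, against 7.32 to 7.81 in the other RVF+ arrays. C1qa, a complement chain made by macrophages, rose by 1.27 ± 0.14 in RVF+ and 1.04 ± 0.15 in RVF. Fibroblast markers rose in 9 of 14 cases in RVF+ and 8 of 14 in RVF (10 and 9 without RVF+ 8), with a summed intensity of 12569 to 16593 in RVF+, 13945 to 15863 in RVF and 11196 to 12941 in CON. Postn, a matrix protein of activated fibroblasts, rose by 3.37 ± 0.34 in RVF+ and 3.25 ± 0.36 in RVF. RVF+ 8 was mid-range among RVF+ arrays in fibroblast markers, unlike in macrophage markers. Endothelial markers rose in 2 of 10 cases in RVF+ and 0 of 10 in RVF (4 and 0 without RVF+ 8), with RVF+ 8 the lowest array, at 8.28 against 8.33 to 8.46 in CON. Cardiomyocyte markers fell in 7 of 11 cases in RVF+ and 1 of 11 in RVF (7 and 5 without RVF+ 8), and their mean was 10.81 in RVF+ 8, against 11.47 to 11.65 in the other RVF+ arrays, 11.57 to 11.70 in RVF and 11.81 to 11.91 in CON. Lymphocyte markers rose in 2 of 10 cases in each group, smooth muscle and pericyte markers in 4 of 10 in RVF+ and 3 of 10 in RVF, and red cell markers in 3 of 8 in RVF+ and 0 of 8 in RVF. Without RVF+ 8 these counts were 2 and 4 for lymphocyte, 3 and 3 for smooth muscle and pericyte, and 4 and 0 for red cell markers. With lists of 8 to 10 genes, 2 calls are close to the share of all genes. Neutrophil markers (9 measured) and stress genes (7 measured) had 0 calls in RVF+ and RVF, with limma, and 2 neutrophil and 0 stress genes in RVF+ and 0 of either in RVF had an unadjusted p under 0.05. No marker was at 0, since the lowest deposited intensity was 2.20. The part of these cell types in the cell cycle values was not tested.

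**Figure D5:**
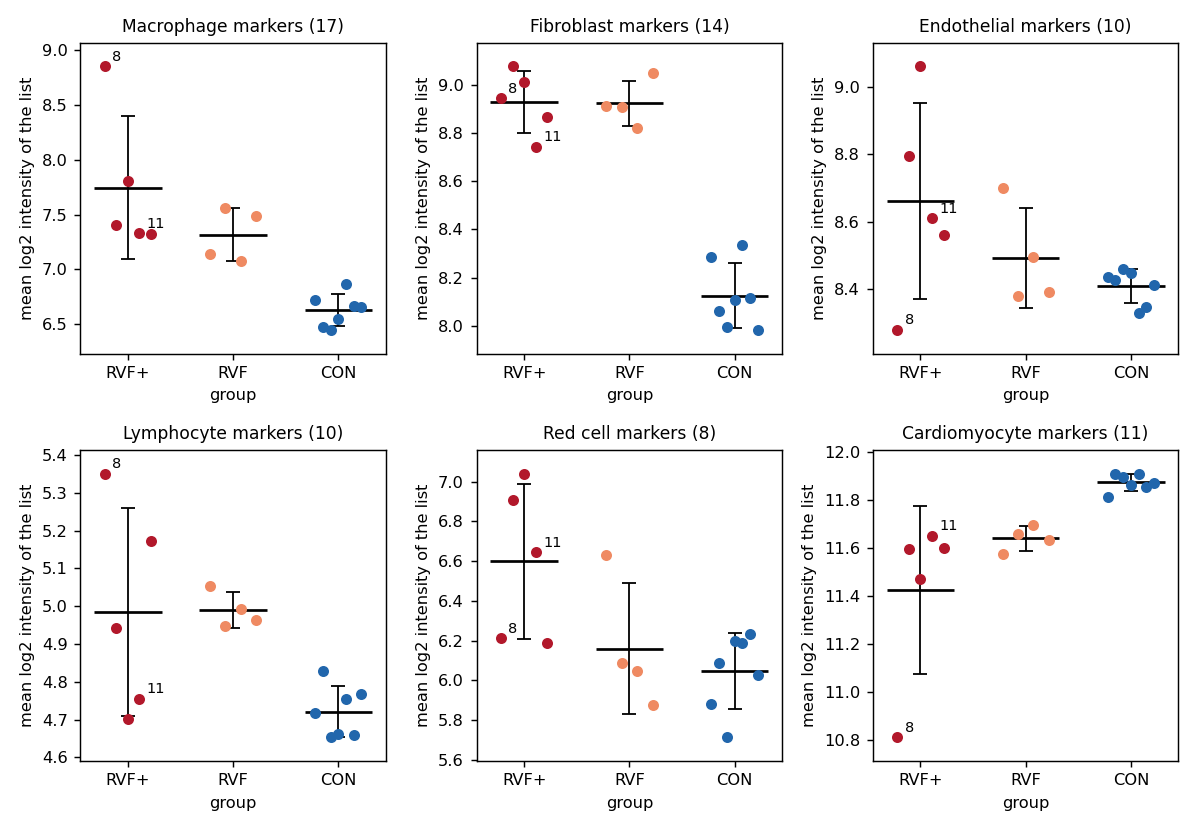
Mean log2 intensity of 6 marker lists for each array by group, with horizontal lines at the group mean, bars of ± 1 SD and the number of measured genes in each title. RVF+ 8 is highest in macrophage and lymphocyte markers and lowest in cardiomyocyte and endothelial markers.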

How the data were processed

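The authors deposited a linear intensity for each probe set on each array, made by RMA per the submitters' processing notes. The software version and builds were not given in the sources used here. Per array, 500 ng of total RNA went into labelling per the labels' protocols. The deposited intensities, 2.20 to 10294 with array medians of 27.1 to 29.3, were converted to log2. RMA, which corrects background, quantile normalizes and summarises probes, compresses differences of dim probe sets. Precision is limited by the number of arrays. No pair of arrays shared more than 0.00342% of its values.

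Of 29214 probe sets, 18644 had 1 gene symbol, 962 had several and 9608 were not listed. The identifiers of 18460 matched RefSeq (GRCr8), and 0 symbols changed. For the 879 genes with several probe sets the highest mean was taken, giving 17245 genes. Group means were fitted to all 16 arrays with limma 3.58.1 in R 4.3.3 (13 residual and 4.45 prior degrees of freedom), and to 15 arrays without RVF+ 8. All 3 groups share 1 spread per gene. P-values are two-sided, with Benjamini-Hochberg adjustment over the 17245 genes, and 0.05 was the threshold. No test was made of a list, which is described by counts and medians beside all genes.

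The members and 12 lists (239 genes) were chosen with earlier results of these data known. Full values are given, in each role, for the 2 members with the smallest p in RVF+ against CON, the 1 with the smallest p in RVF against CON, and Mki67, Pcna and Ccnb1. The 3 genes with the smallest p in RVF+ against CON may be named from each list. Alternatives were quantile normalization, median centring, genes at or above the median level only, averaged probe sets, trend and robust moderation (statmod 1.5.0), array weights, the 2 compared groups only, and leaving out each array. The fit was tested on simulated data with the spread of CON in every group, so groups of unequal spread were not covered.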

Additional observations from a re-analysis of the deposited data

Results flagged for a closer look

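The values formed 60 groups, 3 for each of 20 items. In 6 of them, an array had a gap to its nearest neighbour that was a large share of the range of its group. The items vary together on the same arrays, and most were picked by p-values of fits that held RVF+ 8. The groups are thus not independent, and their count cannot be set against a rate from chance. For Mcm3 the gap was 0.838 of the range for RVF+ 8 (6.58, with 4.71 as the nearest) and 0.85 for RVF 13 (4.97, with 4.62). For Ccnb1 it was 0.818 for RVF+ 8 (6.83, with 4.55). For Ect2 it was 0.796 for RVF+ 8 (6.89, with 4.57), for Ndc80 0.753 (6.42, with 4.40) and for Racgap1 0.732 (6.63, with 4.78). RVF+ 8, already singled out above, is the farthest in 5 of the 6.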

How the results depend on the processing

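No paired analysis was possible because the labels give no pairing of arrays. With array weights, the calls of RVF against CON went to 4688 over all genes (2957 in the fit reported), 28 over the members (8), 5 in S phase (1) and 23 in mitotic genes (7), and with only the 2 compared groups to 4466, 33, 6 and 27. Quantile normalization left 4 RVF calls (0 S phase, 4 mitotic), beside 1334 higher and 1541 lower calls over all 17245 genes. The S phase count was 0 with the mean of probe sets or trend and robust moderation, and 2 with median centring, which put the RVF mitotic median at 0.64 (0.73). Over all genes the mean of probe sets gave 1520 higher and 1421 lower RVF calls, and trend and robust moderation 1528 and 1465. In RVF+ the S phase count was 2 (4) with only the 2 groups, beside 2174 higher and 2126 lower calls over all genes. Genes at or above the median level held 5 members only, so RVF+ calls were 2 (1 S phase, 1 mitotic), or 3 without RVF+ 8, and RVF calls 1 (0 S phase, 1 mitotic), or 3 without RVF+ 8, with RVF medians of 0.16 (S phase) and 1.40 (mitotic). Among all genes at that level, 1842 were called higher and 2082 lower in RVF+, and 1345 and 1319 in RVF. Without RVF+ 8 these calls were 1730 and 1911 in RVF+ and 1761 and 1690 in RVF.

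Array weights turned the RVF+ against RVF median of S phase genes to -0.13, Mki67 to -0.075, and Mcm7 in RVF+ against CON to -0.095. Median centring put the median of all genes at -0.11 in RVF+ and -0.09 in RVF, and the share of calls that were higher at 32.9% (50.8%) and 34% (51.7%). Member calls were then 26 in RVF+ (28) and 9 in RVF (8). Over all genes 1757 were called higher and 3577 lower in RVF+, and 1084 and 2108 in RVF.

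Leaving out each array gave 4288 to 4993 calls in RVF+ against CON, 23 to 31 over members, 2 to 4 in S phase and 20 to 27 in mitotic genes, with medians of 0.16 to 0.55 and 0.67 to 1.32, and 25 to 29 members where RVF+ 8 was out as well. RVF against CON gave 2063 to 4247 calls, 2 to 30 over members, 0 to 5 in S phase and 2 to 25 in mitotic genes, with medians of 0.35 to 0.43 and 0.69 to 0.77, and 28 to 33 members where RVF+ 8 was out as well. The lowest RVF count came without RVF 13, the highest without RVF+ 8. RVF+ against RVF gave 0 to 3 calls (3 without RVF+ 12), 0 to 0 over members and in either phase, and 0 to 1 members where RVF+ 8 was out as well (1 without RVF+ 12, with 60 higher and 60 lower calls over all genes). Its medians ran over -0.24 to 0.29 (S phase) and -0.072 to 0.62 (mitotic), turning negative without RVF+ 8. So did Mki67 (-0.15 to 0.66), Ccnb1 (-0.073 to 0.62) and, against CON, Mcm7 (-0.14 to 0.35). The cause of these changes was not tested, and dim probe sets limit most mitotic genes.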

Other observations

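Ccnd1 and Ccnd2, D-type cyclins that start the cycle with Cdk4 and Cdk6, were picked after their values were seen. Ccnd1 rose by 0.44 ± 0.13 in RVF+ (limma adjusted p = 0.0213) and by 0.96 ± 0.14 in RVF (adjusted p = 0.00017). Ccnd2 rose by 0.59 ± 0.14 in RVF+ (adjusted p = 0.00407) and by 1.06 ± 0.15 in RVF (adjusted p = 9.2e-05). Both estimates were larger in RVF, and RVF+ against RVF passed for neither. Without RVF+ 8 the values in RVF+ were 0.40 ± 0.14 for Ccnd1 and 0.72 ± 0.12 for Ccnd2. The cell cycle inhibitor Cdkn1a rose by 0.89 ± 0.19 in RVF+ (adjusted p = 0.0018) and 0.85 ± 0.20 in RVF (adjusted p = 0.00751), and E2f1 by 0.64 ± 0.21 in RVF+ (adjusted p = 0.0278). Without RVF+ 8, Cdkn1a differed in RVF+ by 0.85 ± 0.20 (adjusted p = 0.00414) and E2f1 by 0.35 ± 0.10 (adjusted p = 0.0142). In RVF, E2f1 did not pass with all arrays, but without RVF+ 8 it rose by 0.50 ± 0.10 (adjusted p = 0.000946). Its rise was thus not confined to RVF+. Cdkn1a and E2f1 fall outside the rule by which genes of a list were named, so they too are a selection.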
